A study of Mus musculus with 67 samples.

Results

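The accessible chromatin around Dbx1 and Dbx2 was followed through the differentiation of mouse embryonic stem cells into ventral neural tube progenitors. Members were all elements of the deposited table whose nearest gene in the deposited annotation was Dbx1 or Dbx2, and they numbered 32 of 111638. Of these, 23 lay near Dbx1 on chromosome 7 and 9 lay near Dbx2 on chromosome 15. Each is called here by its gene and the distance of its center from the start site, with negative distances upstream. A further 3 annotated Dbx1 elements had no values to analyse. At both loci elements differed between p0-1 progenitors and p3 progenitors. At day 6 the distal element Dbx1 -59.8 kb held 199.6-fold more normalized counts in p0-1 than in p3, and the intronic element Dbx2 +14.8 kb held 16.5-fold more. The first ratio rests on a p3 mean of 10.8 normalized counts, near the floor, so a few reads set its size.

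Dbx1 and Dbx2 encode homeodomain transcription factors that act mainly as repressors. Both are expressed in progenitors of the intermediate neural tube, from which the V0 and V1 interneurons arise, and Dbx1 marks the p0 domain. Hedgehog signaling from the floor plate represses them, and they take part in the cross-repressive network that sets the borders between ventral progenitor domains. An accessible element is a stretch of chromatin open to the Tn5 transposase, and can hold a promoter, an enhancer or a silencer.

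The 67 samples were made by CaTS-ATAC, in which fixed cells are sorted on intracellular transcription factors and their open chromatin is then sequenced. All came from the HM1 line of mouse embryonic stem cells. Neuromesodermal progenitors (NMPs) were collected at day 3, before any Hedgehog agonist, and neural progenitors (NPs) at days 4, 5 and 6 after culture with the agonist SAG. The 25 conditions comprised NMPs at 0 nM SAG, p0-1 at 0 and 10 nM, p2 at 10 and 100 nM, and pMN and p3 at 100 and 500 nM. Of the conditions, 17 had 3 replicates and 8 had 2. Where samples are pooled over SAG, n counts samples and not separate differentiations. The sort took SOX2+ cells as p0-1 when PAX6+ and NKX6.1-, and as p2 when PAX6+ and NKX6.1+. It took them as pMN when OLIG2+ and NKX2.2-, and as p3 when NKX2.2+ and OLIG2-. Thus p0-1 joins the p0 and p1 domains in a single population. p0-1 shared no SAG concentration with pMN or p3, and in those comparisons cell type and SAG concentration cannot be told apart. p0-1 and p2 shared 10 nM. In sorted populations a larger share of cells with an open element and a more open element in every cell cannot be told apart.

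Most Dbx1 members lay outside the gene. The element Dbx1 +1.5 kb (chr7:49633350-49637413, mm10, 4064 bp) spanned the start site and most of the gene, which is 5351 bp long and on the minus strand. Of the other Dbx1 elements, 6 were intergenic and upstream, 1 was intergenic and downstream, and 15 lay inside Nav2, the neighboring gene. At Dbx2, on the minus strand of chromosome 15, 3 elements were upstream, 3 in the gene body and 3 downstream. Dbx2 +0.7 kb (chr15:95652832-95655217, 2386 bp) covered the start site of the deposited annotation and reached into the first intron. It did not reach the start of the gene in GENCODE, at chr15:95655960.

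The 300 bases at the center of 4 elements are shown, because the start-site elements and the elements with the largest differences between cell types carry the results below. They were read from GRCm38.p6, the assembly named mm10, on the plus strand. Capitals mark matches to the letters searched on both strands, namely TAATTA (homeodomain core), AACAAT (SOX core), ACCACCC (GLI core), TGTTTAC (forkhead core), CAGCTG and CAGATG (E-boxes). None of the 4 windows overlapped an annotated exon.
Dbx1 -59.8 kb, chr7:49696465-49696764, intergenic: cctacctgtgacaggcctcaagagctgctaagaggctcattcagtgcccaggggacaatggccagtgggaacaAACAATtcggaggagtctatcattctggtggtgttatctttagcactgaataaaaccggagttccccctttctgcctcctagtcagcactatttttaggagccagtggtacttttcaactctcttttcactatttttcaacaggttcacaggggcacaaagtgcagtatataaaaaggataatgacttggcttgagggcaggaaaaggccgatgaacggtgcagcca
Dbx1 +1.5 kb, chr7:49635231-49635530, intron 2 of Dbx1: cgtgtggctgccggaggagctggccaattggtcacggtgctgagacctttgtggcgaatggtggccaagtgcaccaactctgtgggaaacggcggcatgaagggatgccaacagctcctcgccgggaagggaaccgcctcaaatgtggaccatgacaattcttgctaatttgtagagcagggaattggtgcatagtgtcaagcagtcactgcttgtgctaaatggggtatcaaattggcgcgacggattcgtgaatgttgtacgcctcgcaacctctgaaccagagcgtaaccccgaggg
Dbx2 +14.8 kb, chr15:95639787-95640086, intron 2 of Dbx2: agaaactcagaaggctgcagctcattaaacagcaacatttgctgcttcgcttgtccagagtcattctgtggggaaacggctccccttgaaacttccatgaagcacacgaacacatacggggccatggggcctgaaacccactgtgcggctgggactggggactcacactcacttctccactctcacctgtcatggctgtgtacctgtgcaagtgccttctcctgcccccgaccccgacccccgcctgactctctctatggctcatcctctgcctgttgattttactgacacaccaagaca
Dbx2 +0.7 kb, chr15:95653874-95654173, intron 1 of Dbx2: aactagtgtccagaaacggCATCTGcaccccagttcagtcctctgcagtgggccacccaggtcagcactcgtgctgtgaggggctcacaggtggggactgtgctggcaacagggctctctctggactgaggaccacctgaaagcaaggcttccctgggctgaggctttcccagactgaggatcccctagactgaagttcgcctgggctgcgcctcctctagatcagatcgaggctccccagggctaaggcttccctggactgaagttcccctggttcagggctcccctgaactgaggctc
The window of Dbx1 -59.8 kb held 1 match, to AACAAT at bases 74 to 79, and that of Dbx2 +0.7 kb held 1 match, to CAGATG on the minus strand at bases 20 to 25. The other 2 windows held none of these letters. Over the windows of all 32 members, AACAAT was found in 7 (21.9%, against 18.4% of the windows of all 111638 elements), CAGCTG in 6 (18.8% against 21.1%) and CAGATG in 5 (15.6% against 25.7%). TAATTA was found in 2 members (6.25% against 7.84%), ACCACCC in 1 (3.12% against 4.27%) and TGTTTAC in 0 (against 4.95%).

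Depth, as reads in elements, ran from 9298160 to 29985325 per sample with a median of 20254011. Values below are normalized counts, that is, reads divided by the size factor of the sample. They grow with the length of an element, so levels are compared between samples and not between elements. The labels were checked at the elements nearest the start sites of marker genes. The element of T, a mesoderm regulator, averaged 1175 normalized counts in NMPs and 99.0 to 276 in the NP groups. That of Olig2, the gene that defines pMN, averaged 1358 to 2325 in pMN and 381 to 626 in p0-1. That of Foxa2, a regulator of floor plate and p3, averaged 1298 to 1662 in p3 and 261 to 697 in p0-1, and 1494 in NMPs. Other markers did not follow their label. That of Tbx6, a mesoderm gene, averaged 778 in NMPs and 857 in p0-1 at day 6, and that of Nkx2-9, a p3 gene, averaged 1914 in p3 and 2091 in pMN at day 6.

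**Figure D1:**
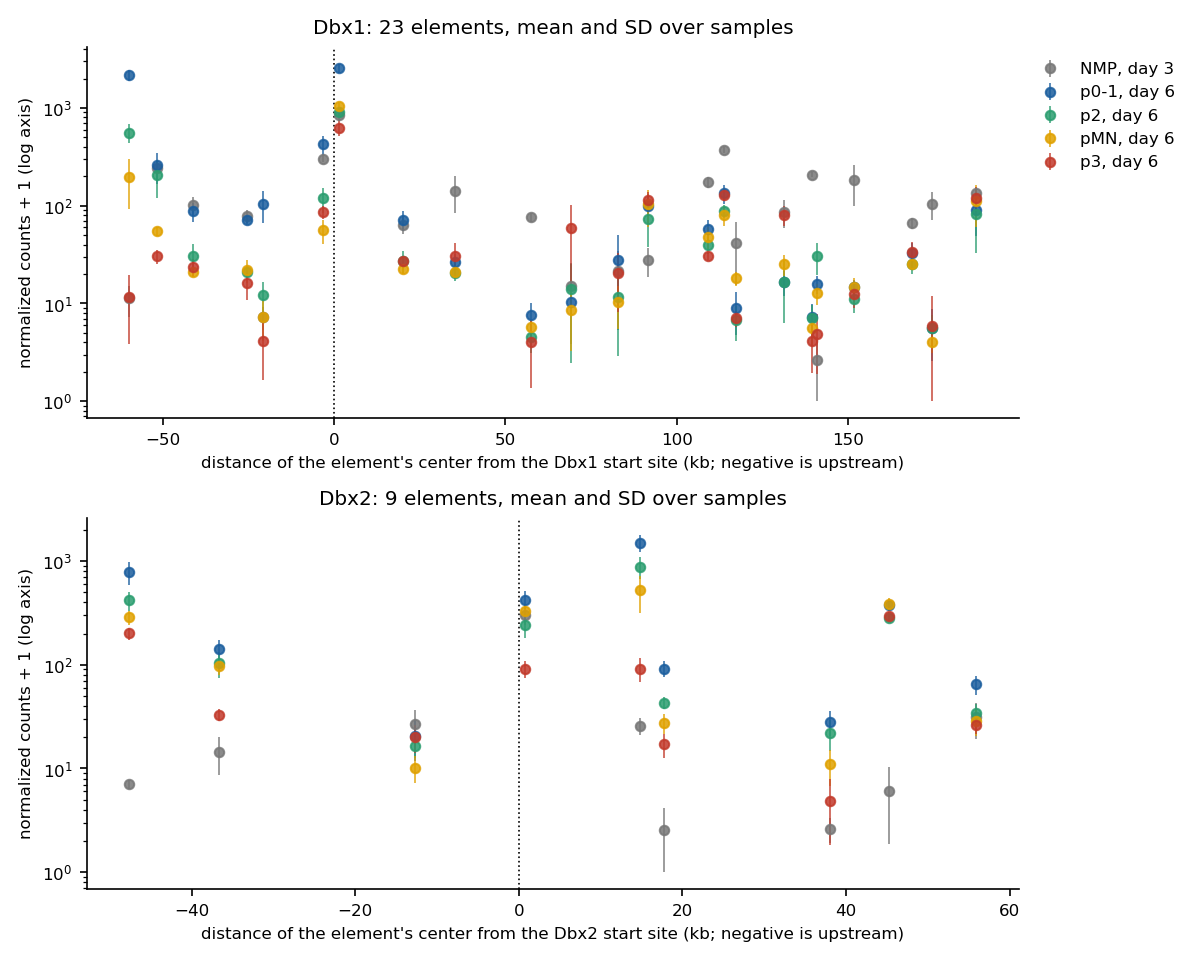
Mean normalized counts plus 1 (log axis) of the 23 Dbx1 elements (top) and the 9 Dbx2 elements (bottom) against the distance of the element from the start site in kb, in NMPs at day 3 and the 4 NP types at day 6, with bars of 1 SD. Points for p0-1 lie above all other groups at Dbx1 -59.8 kb (mean 2152) and Dbx2 +14.8 kb (mean 1502), while 11 of the 15 elements inside Nav2, on the right of the upper panel, are highest in NMPs.

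Dbx1 -59.8 kb (chr7:49696204-49697027, intergenic) separated all the NP types from each other. In NMPs its normalized counts were 8.49, 14.8 and 7.54. At day 6 the 5 p0-1 samples held 2027, 1783, 2117, 2458 and 2373, and the 6 p2 samples ran from 419 to 723 with a median of 549.7. The pMN samples held 321, 149, 224 and 80.6, and the p3 samples 21.4, 12.2, 4.62 and 4.86. The order was therefore p0-1, p2, pMN and p3, with no overlap between neighbors at day 5 or day 6. At day 4 the means stood in the same order, 861 ± 361 (SD, n = 6), 455 ± 142 (n = 6), 222 ± 25.5 (n = 6) and 46.5 ± 10.8 (n = 5), and p0-1 and p2 overlapped.

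The differences of this element from p0-1 grew with time. Against p3 the ratio of means was 18.5 at day 4, 49.5 at day 5 and 199.6 at day 6. The difference on the scale of the deposited log2 values, which are variance-stabilized (VST) and shrink the differences of low counts, was -6.72 ± 0.233 (SE) at day 6 (adjusted p = 5.47e-08, limma). Against pMN the ratio was 3.87, 5.91 and 11.1 on the 3 days (adjusted p = 0.000118, 1.29e-08 and 3.18e-05). Against p2 it was 1.89, 2.33 and 3.84, and the test was passed at day 5 (adjusted p = 9.17e-05) and day 6 (adjusted p = 2.75e-05) but not at day 4 (adjusted p = 0.225). pMN and p3 differed too, by a ratio of 4.79, 8.37 and 18.0 (adjusted p = 8.91e-08, 1.07e-06 and 0.000175).

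**Figure D2:**
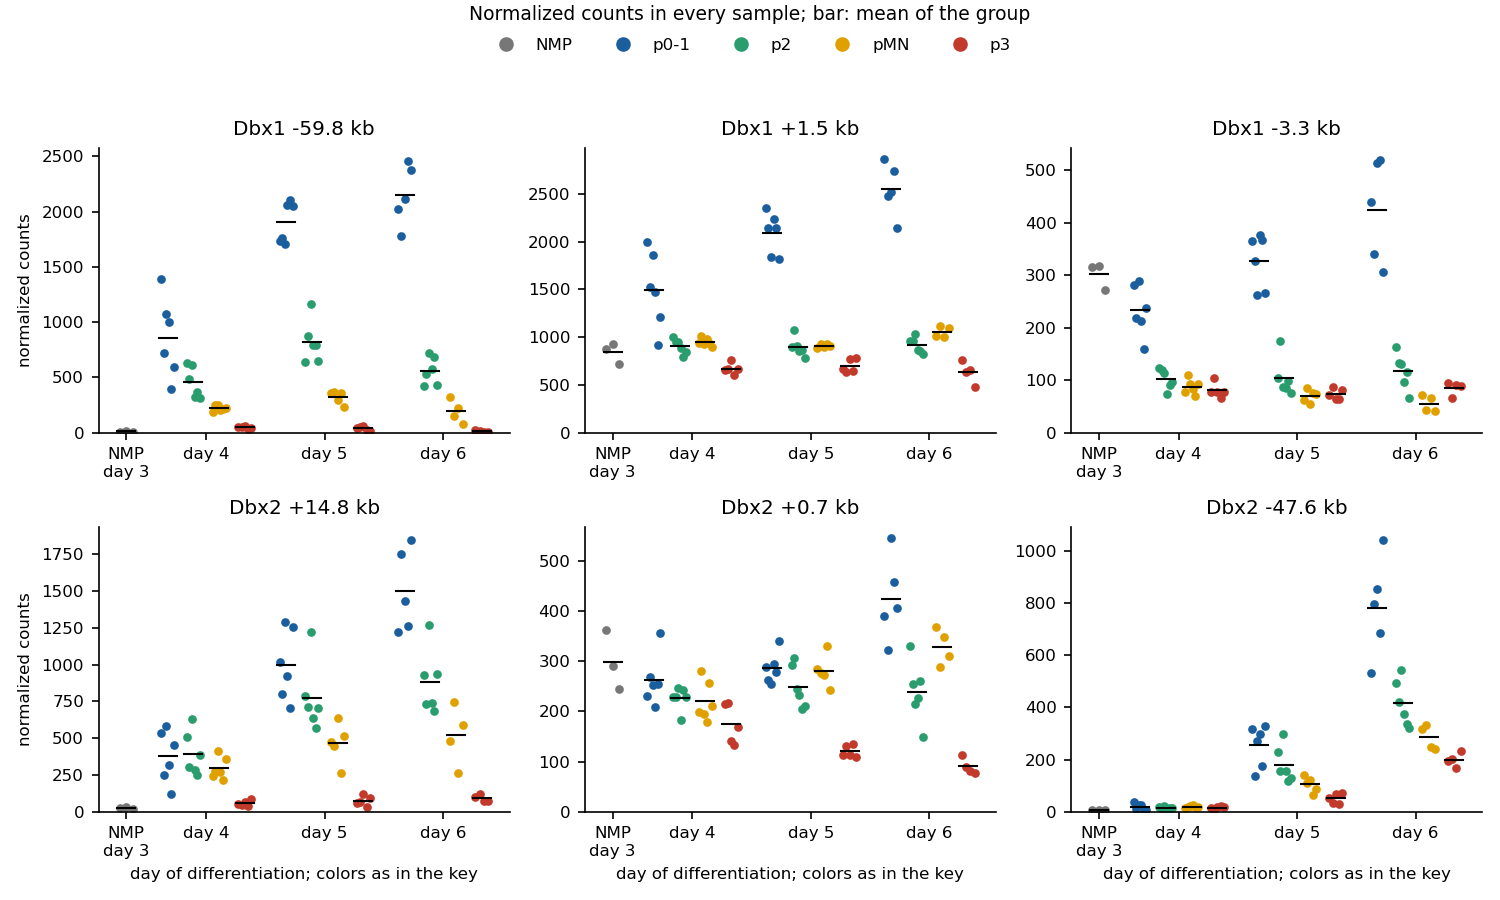
Normalized counts of 3 Dbx1 and 3 Dbx2 elements in every sample, by day (x axis) and cell type (color), with a black bar at the mean of each group. Dbx1 -59.8 kb stays at or below 64.2 in all p3 samples and reaches 2458 in p0-1, while Dbx2 -47.6 kb is at or below 36.0 in every sample until day 4.

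The start-site element Dbx1 +1.5 kb was open in every group, and p0-1 stood out by degree. NMPs held 880.0, 929 and 714 normalized counts. The p0-1 samples of day 6 held 2865, 2481, 2519, 2741 and 2139.7, while p2 ran from 818 to 1031 with a median of 913. The pMN samples held 1013, 1116, 998 and 1092, and the p3 samples 759, 635, 653 and 477. All p0-1 samples were thus above all others at days 5 and 6, p2 and pMN overlapped on every day, and p3 was lowest in the mean on every day.

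The ratio of p0-1 to p3 at this element was 2.24, 2.98 and 4.04 on days 4, 5 and 6 (adjusted p = 0.000425, 4.35e-09 and 5.84e-07). Against p2 it was 1.66, 2.33 and 2.79, called at days 5 and 6 (adjusted p = 6.27e-06 and 4.27e-06). Against pMN it was 1.58, 2.30 and 2.42, again called at days 5 and 6 (adjusted p = 6.1e-08 and 1.25e-05). The difference between pMN and p3 reached a ratio of 1.67 at day 6 and was called on no day, since it stayed under 2-fold.

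Dbx1 -3.3 kb (chr7:49639038-49641173, intergenic), the nearest upstream element, was open in NMPs and, among NPs, stood highest in p0-1 on every day without overlap with p2. NMPs held 315, 318 and 272 normalized counts, and p0-1 at day 6 held 439, 340.0, 515, 519.6 and 307. The pMN samples of that day held 70.8, 42.3, 66.1 and 40.9 and the p3 samples 94.0, 66.1, 90.1 and 89.3, all below p0-1. p2 came next, and pMN and p3 changed places between days and overlapped. It was the only member called between p0-1 and p2 at day 4 (233 ± 48.1 against 103 ± 19.1, n = 6 each, adjusted p = 0.00587). That call was lost without any of the 3 replicates (adjusted p = 0.0559 to 0.096) and at 10 nM SAG alone (adjusted p = 0.604, and 0.0268 with the replicate block). The ratio of p0-1 to p2 rose to 3.14 and 3.60 at days 5 and 6 (adjusted p = 0.00011 and 0.000458).

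Dbx1 -51.6 kb, also upstream, followed another course. It was open in NMPs (209.7, 267 and 249.9), fell to 74.3 ± 13.9 in p0-1 at day 4 (n = 6, adjusted p = 4.57e-06), and stood at 128 ± 24.8 at day 5 (n = 6) and 258 ± 91.8 at day 6 (n = 5). The step from day 5 to day 6 was called narrowly (adjusted p = 0.00917) and was lost under most alternatives. In p2 it stood at 205 ± 86.3 (n = 6) at day 6, overlapping p0-1. pMN and p3 were at 53.9 ± 5.64 and 29.3 ± 5.19 (n = 4 each), both below every p0-1 sample (adjusted p = 0.000207 and 9.04e-06).

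The remaining 3 upstream elements and Dbx1 +20.1 kb, downstream, were too weak for the filter, which asked for more than 100 normalized counts on average over the samples of a comparison. They were tested without it. Dbx1 -20.8 kb was nearly closed outside p0-1. In p0-1 it averaged 15.0, 41.0 and 103 normalized counts on days 4, 5 and 6. At day 6 the p0-1 samples held 77.7, 68.4, 161, 97.9 and 108, and no p2, pMN or p3 sample exceeded 16.3. The ratio of p0-1 to p2 was 9.21 at day 6 (adjusted p = 7.23e-05, no filter) and that of p0-1 to p3 was 33.3 (adjusted p = 2.2e-06, no filter). Dbx1 -41.2 kb, -25.5 kb and +20.1 kb were open in NMPs at means of 101, 77.9 and 62.9 normalized counts. In p0-1 they were at 86.5, 70.3 and 71.1 on day 6, and in p3 at 22.4, 15.2 and 25.9. Each was called between p0-1 and p2, pMN and p3 at days 5 and 6 without the filter.

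Inside Nav2, a neuron navigator gene, 5 of the 15 elements were called between p0-1 and another NP type on some day without the filter. All 5 had a mean below 260 normalized counts in every group. Of all elements, from 0.206% (p2, day 4) to 28.3% (p3, day 6) were called in a single such comparison. The share of all elements called in any of them was not counted. Without the filter, 6 of the 15 fell from NMPs to p0-1 at day 4. They were Dbx1 +35.3, +57.4, +113.8, +139.5, +151.8 and +174.3 kb. Of these, Dbx1 +139.5 kb went from 206 normalized counts in NMPs to 10.8 (adjusted p = 1.97e-08). Of all elements, 47.6% were called in this comparison without the filter, so these 7 calls of 15 are near the background. Dbx1 +91.6 kb rose from 26.8 ± 9.27 (n = 3) to 173 ± 19.5 (n = 6, adjusted p = 2.01e-07). Of these 15, 3 were higher in p3 than in p0-1. In either direction, 8.99%, 26.5% and 28.3% of all elements were called between these types on days 4, 5 and 6 without the filter. Dbx1 +187.4 kb held 256 ± 30.6 (n = 5) in p3 against 126 ± 35.4 (n = 6) in p0-1 at day 4 (adjusted p = 0.000888) and 143 ± 26.8 against 70.7 ± 19.8 at day 5 (adjusted p = 0.000623). It overlapped at day 6. Without the filter, Dbx1 +131.1 kb averaged 80.1 in p3 and 15.6 in p0-1 at day 6 (adjusted p = 1.74e-05), and Dbx1 +69.2 kb averaged 58.0 and 9.41 (adjusted p = 0.00108).

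**Figure D3:**
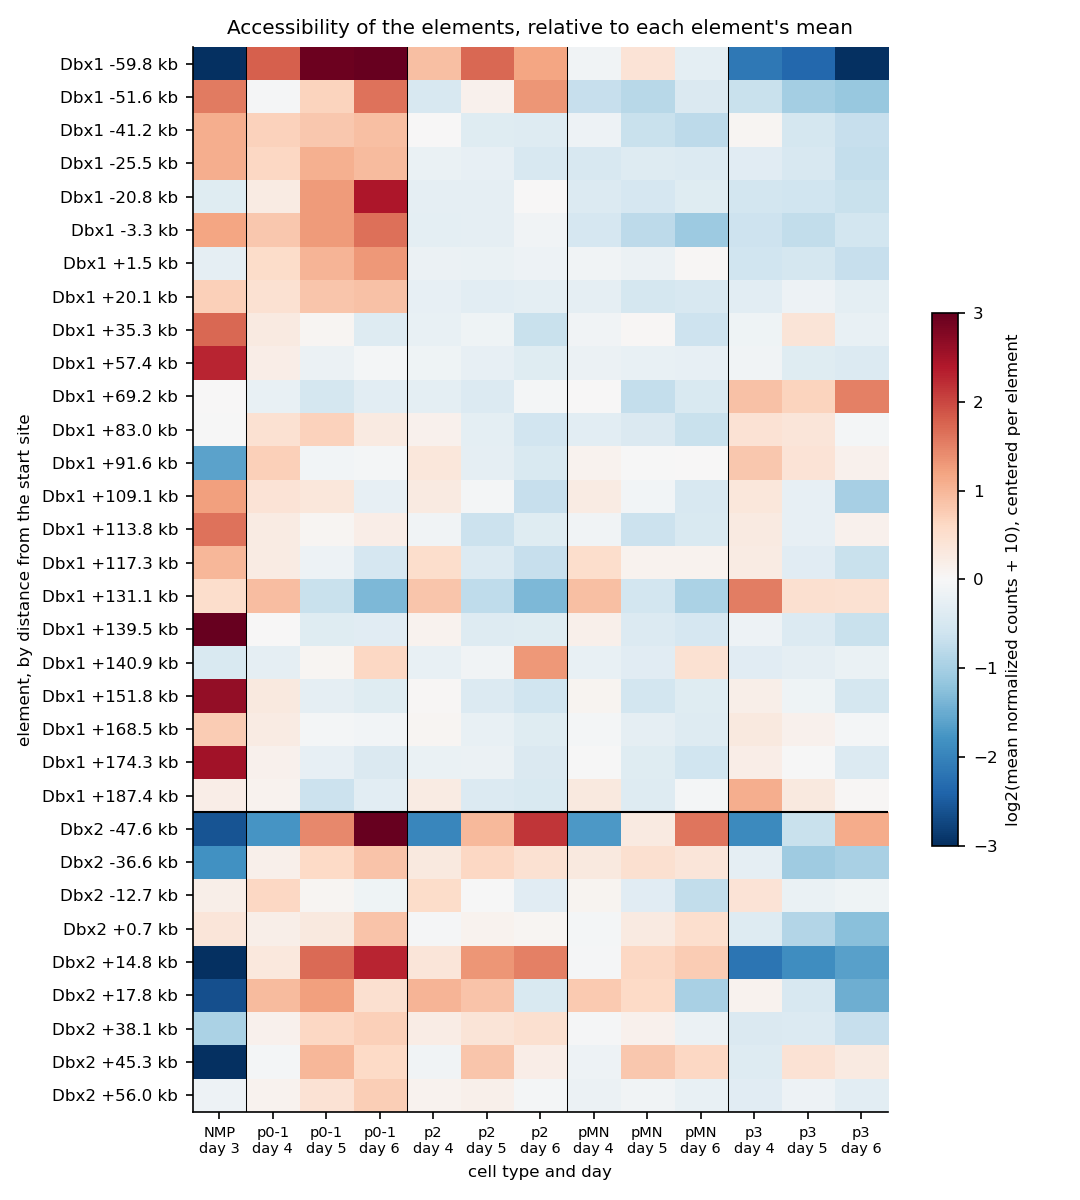
Color map of the 32 elements (rows, by distance from the start site, with Dbx1 above the line) in the 13 groups of cell type and day (columns). Color is log2 of the mean normalized count plus 10, centered on the mean of the element, from blue (3 below) to red (3 above). The 6 upstream Dbx1 elements and +1.5 and +20.1 kb are red in p0-1 at days 5 and 6, while Dbx1 +139.5, +151.8 and +174.3 kb are dark red in NMPs and pale elsewhere.

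At Dbx2 an element in the second intron had the largest ratio of p0-1 to p3 on each day. Dbx2 +14.8 kb (chr15:95639106-95640768) held 24.2, 29.7 and 20.5 normalized counts in NMPs. At day 6 the p0-1 samples held 1221, 1751, 1431, 1259 and 1846, the p2 samples ran from 682 to 1266 with a median of 835, the pMN samples held 481, 746, 263 and 589.7, and the p3 samples 102, 119, 69.3 and 72.8. Only p3 was set apart from all other NP types on every day, and p0-1 overlapped p2 throughout. At day 4, p2 had the highest mean (392 ± 149, n = 6) and p0-1 the next (376 ± 178, n = 6).

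The ratio of p0-1 to p3 at Dbx2 +14.8 kb was 6.44, 13.2 and 16.5 on days 4, 5 and 6 (adjusted p = 0.000213, 3.36e-08 and 1.21e-07). Against pMN it was 1.27, 2.13 and 2.89, called at day 5 (adjusted p = 0.000853) and day 6 (adjusted p = 0.00116). Against p2 it was 0.96, 1.29 and 1.70 and was called on no day, at day 6 because it stayed under 2-fold (adjusted p = 0.00645). pMN and p3 differed on all 3 days, with a ratio of 5.07, 6.17 and 5.72 (adjusted p = 6.53e-07, 4.73e-06 and 0.000158). Thus Dbx1 -59.8 kb separated p2 from p0-1 and Dbx2 +14.8 kb did not, although the difference between the 2 elements was itself not tested.

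The start-site element Dbx2 +0.7 kb set p3 against the other NP types. NMPs held 362, 291 and 244 normalized counts. The p0-1 samples of day 6 held 389.7, 322, 545, 458 and 407, the p2 samples ran from 148 to 330.2 with a median of 240.5, the pMN samples held 368, 288, 348 and 311, and the p3 samples 114, 88.5, 82.0 and 76.7. All p3 samples were lowest at days 5 and 6, and p0-1, pMN and p2 overlapped their neighbors. p0-1 exceeded p3 by a ratio of 2.38 at day 5 (adjusted p = 2.61e-07) and 4.70 at day 6 (adjusted p = 2.78e-06), and pMN exceeded p3 by 2.34 and 3.64 (adjusted p = 7.15e-07 and 1.5e-05).

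Dbx2 -47.6 kb (chr15:95701820-95702971, intergenic) opened late and in every NP type. Its normalized counts were 5.38 to 6.74 in NMPs and 5.69 to 36.0 over all NP samples at day 4, with no order between types. In p0-1 it rose from 18.5 ± 12.2 (n = 6) to 255 ± 79.2 at day 5 (n = 6, adjusted p = 9.22e-07) and 783 ± 190.2 at day 6 (n = 5, adjusted p = 0.000735). At day 6 the p0-1 samples held 533, 798, 855, 685 and 1043, p2 ran from 321 to 544 with a median of 399, pMN held 316, 333, 249.5 and 242, and p3 held 196, 203, 167 and 234. The ratio of p0-1 to p3 was 4.98 at day 5 and 3.91 at day 6 (adjusted p = 1.55e-05 and 8.35e-06), and that of p0-1 to pMN 2.41 and 2.74 (adjusted p = 0.00147 and 0.000304).

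Dbx2 +45.3 kb opened between NMPs (9.70, 1.35 and 4.31) and p0-1 at day 4 (234 ± 68.6, n = 6, adjusted p = 4.28e-08) and rose to 497 ± 54.7 at day 5 (n = 6, adjusted p = 0.000275), and it was not called between p0-1 and p2, pMN or p3, nor between pMN and p3. Dbx2 +17.8 kb held 159 ± 25.8 in p0-1 (n = 6) and 41.8 ± 3.06 in p3 (n = 5) at day 5 (adjusted p = 1.21e-07). At day 6 it held 90.9 ± 16.5 in p0-1 (n = 5), 42.0 ± 5.41 in p2 (n = 6) and 26.6 ± 5.86 in pMN (n = 4), a ratio to pMN of 3.42 (adjusted p = 0.000131, no filter). Dbx2 -36.6 kb, under the filter, averaged 140.0 in p0-1 and 32.0 in p3 at day 6 (adjusted p = 7.17e-06, no filter). Dbx2 +38.1 kb and +56.0 kb, also under it, averaged 27.1 and 63.8 in p0-1 and 3.90 and 25.5 in p3 (adjusted p = 0.000402 and 0.000481, no filter). Dbx2 -12.7 kb, at means of 9.18 to 39.1 in all groups, was called in no comparison.

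Counted over the loci, a call needed more than a 2-fold difference in means and an adjusted p below 0.01, adjusted over all elements passing the filter. Of the 32 members, 16 were tested in at least 1 comparison and the other 16 in none. A member that passed the filter only through the group where it was high had to differ, so the counts are given as description beside the share of all tested elements that were called. Between p0-1 and p2, 1 of 11 tested members was called at day 4 (0.189% of all tested elements). The calls were 3 of 10 on day 5 (3.88%) and 3 of 10 on day 6 (5.32%), all Dbx1 elements and all higher in p0-1. Between p0-1 and pMN the counts were 2 of 11 (3.9%), 5 of 9 (11.3%) and 6 of 10 (12.4%), all higher in p0-1.

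Between p0-1 and p3 the calls on days 4, 5 and 6 were 5 of 11 (6.57%), 8 of 11 (18.7%) and 7 of 11 (23.8%). All were higher in p0-1 apart from Dbx1 +187.4 kb at days 4 and 5. Between pMN and p3, 2 of 9 (8.04%), 3 of 7 (19.2%) and 3 of 9 (25.9%) were called, all higher in pMN. Without the filter and over all 32 members, 8 were called between p0-1 and p2 at each of days 5 and 6 (7.06% and 6.7% of all elements), 12 and 13 between p0-1 and pMN (18.5% and 13.8%), and 17 and 18 between p0-1 and p3 (26.5% and 28.3%). Of the last, 3 and 2 were higher in p3. The median difference of VST values over the 32 members was -0.873 from p0-1 to p3 at day 6, against -0.0528 over all 111638 elements.

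Over time in p0-1, 6 of 12 tested members changed between NMPs and p0-1 at day 4 (41.6% of all tested elements), with 4 higher at day 4 (Dbx1 -59.8 and +91.6 kb, Dbx2 +14.8 and +45.3 kb) and 2 lower (Dbx1 -51.6 and +113.8 kb). From day 4 to day 5, 4 of 11 rose (16.3%), namely Dbx1 -59.8 kb and Dbx2 -47.6, +14.8 and +45.3 kb. From day 5 to day 6, 2 of 11 rose (4.12%), Dbx1 -51.6 kb and Dbx2 -47.6 kb. Dbx1 -59.8 kb went from 10.3 ± 3.97 in NMPs (n = 3) to 861 ± 361 at day 4 (n = 6, adjusted p = 5.55e-09), a ratio of 83.7, while Dbx1 +1.5 kb rose 1.78-fold and was not called. Dbx2 +14.8 kb went from 24.8 ± 4.63 to 376 ± 178 in the same interval (adjusted p = 3.52e-06).

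The course from day 4 to day 6 was compared between p0-1 and p3 with an interaction term, and 4 of 11 tested members were called (9.85% of all tested elements). At Dbx1 -59.8 kb the ratio of day 6 to day 4 was 2.50 in p0-1 and 0.232 in p3 (difference of log2 changes -3.33, adjusted p = 1.68e-05). At Dbx1 -51.6 kb it was 3.47 and 0.668 (-2.35, adjusted p = 4.13e-05), and at Dbx2 +0.7 kb 1.62 and 0.517 (-1.64, adjusted p = 0.000116). Dbx2 -47.6 kb increased in both, by 42.4-fold and 12.7-fold (-1.75, adjusted p = 0.00228). With voom on the recovered reads the calls at Dbx1 -59.8 kb and Dbx2 -47.6 kb were lost (adjusted p = 0.0316 and 0.0697).

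Whether the SAG concentration changed these elements within p0-1 was asked by comparing 0 and 10 nM. The comparisons above share the p0-1 samples. None of the 11 tested members was called with limma at day 4 (0% of all tested elements), day 5 (0.00318%) or day 6 (0%), and 1, 3 and 3 of them had an unadjusted p under 0.05. The share of all tested elements with an unadjusted p under 0.05 is not given, so the latter counts are description only. At Dbx1 -59.8 kb the day 4 samples held 1387, 718 and 1071 normalized counts at 0 nM and 1004, 393 and 592 at 10 nM. These overlapped, and 10 nM was lower for each replicate number. At day 5 they held 1732, 1765 and 1706 at 0 nM and 2061, 2109.7 and 2051 at 10 nM, without overlap, but the difference of 0.26 in log2 did not pass (adjusted p = 0.0532). At day 6 they held 2027 and 1783 at 0 nM and 2117, 2458 and 2373 at 10 nM, again higher at 10 nM without overlap and not called.

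p0-1 and p2 could be compared at a shared 10 nM SAG with 3 samples each. At day 6, Dbx1 -59.8 kb held 2117, 2458 and 2373 normalized counts in p0-1 and 419, 527 and 723 in p2 (adjusted p = 0.000542), and Dbx1 +1.5 kb and -3.3 kb were called as well (adjusted p = 0.000506 and 0.00248). At day 5 no member was called. Dbx1 -59.8 kb held 2061, 2109.7 and 2051 against 643, 874 and 1165 (adjusted p = 0.0157). With the replicate block, which pairs samples by the replicate number of their titles, the same 3 elements were called at day 5 (adjusted p = 0.00114, 0.000644 and 0.00107 for -59.8, +1.5 and -3.3 kb). At day 4 none was called, and Dbx1 -59.8 kb held 1004, 393 and 592 in p0-1 and 626, 485 and 614 in p2, which overlapped.

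Dbx2 +14.8 kb behaved otherwise at 10 nM. At day 4 it held 319, 118 and 455 normalized counts in p0-1 and 507, 301 and 628 in p2, higher in p2 for each replicate number. Neither fit called it (adjusted p = 0.604, and 0.0128 with the replicate block). At day 6 it held 1431, 1259 and 1846 in p0-1 and 931, 733 and 1266 in p2, lower in p2 for each number. The fold of 0.63 in log2 was under the threshold (adjusted p = 0.0792, and 2.18e-06 with the replicate block). Elements of 2 of 3 neuronal marker genes averaged more in p2 than in p0-1 at days 5 and 6. Over all SAG concentrations the element of Tubb3, a neuronal tubulin, averaged 1595 in p2 and 873 in p0-1 at day 5 and 2135 and 1233 at day 6, and that of Elavl3, a neuronal RNA-binding protein, 809 and 593, then 1180 and 844. That of Isl1, a motor neuron regulator, averaged 849 and 906, then 994 and 1049. In NMPs the elements of Tubb3 and Elavl3 averaged 1722 and 1160. In pMN they averaged 1448 and 918 at day 5, and 1749 and 1299 at day 6, so high levels were not particular to p2. None of the 3 marker elements was called, and none was near 0 in any group. Their part in the differences between p0-1 and p2 was not tested.

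**Figure D4:**
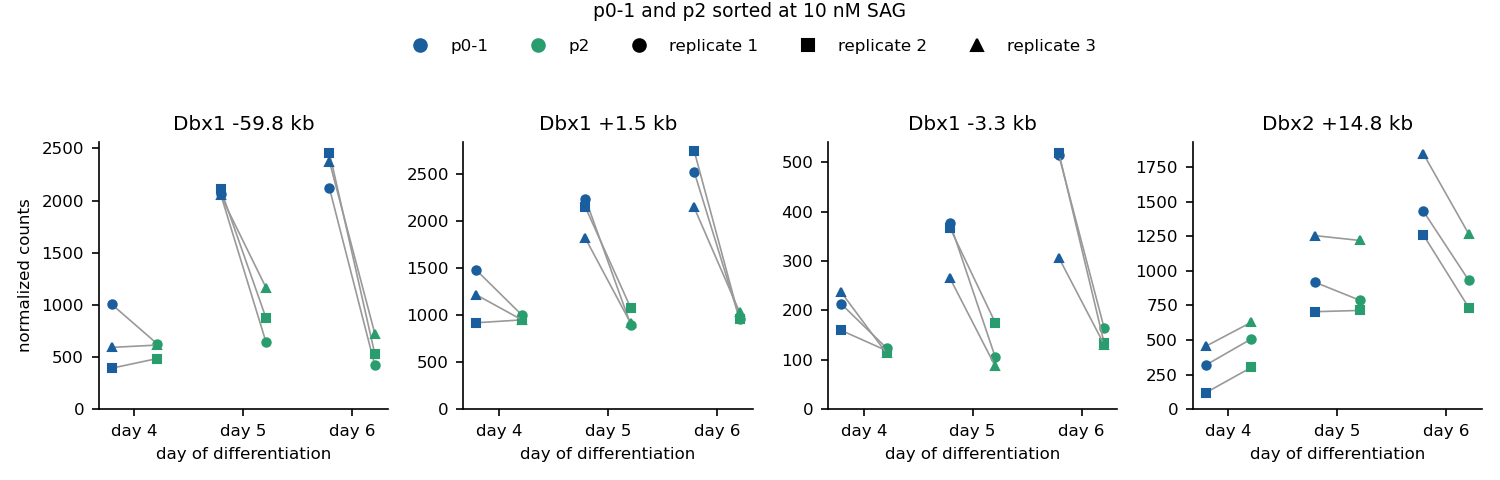
Normalized counts of 4 elements in p0-1 (blue) and p2 (green) at 10 nM SAG on days 4, 5 and 6, with symbols for the replicate number and gray lines joining samples of the same number. The 3 Dbx1 elements fall from p0-1 to p2 in every pair at days 5 and 6, and Dbx2 +14.8 kb rises in all 3 pairs at day 4 and falls in all 3 at day 6.

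Other genes of the ventral network were read at the element nearest their start site. Of 6 network genes analysed (Nkx2-9, Nkx6-1, Nkx6-2, Olig2, Irx3 and Pax6), Olig2 was higher in p2 than in p0-1 at days 5 and 6, and no other passed between these types. Nkx2-9 and Olig2 were higher in pMN than in p0-1 on all 3 days. Against p3, Nkx2-9 was higher in p3 on all 3 days, Olig2 was higher in p3 at days 5 and 6, and Pax6, an activator of intermediate fates, was higher in p0-1 at day 6 (3889 against 1696 normalized counts, adjusted p = 1.39e-06). Between pMN and p3, Olig2 was higher in pMN at day 6 and no other passed.

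Of the 3 output or partner genes, Evx2 was not called between p0-1 and p2, pMN or p3, nor between pMN and p3, and Evx1, which marks V0 neurons, was under the filter there. Prdm12, a p1 regulator, was higher in p0-1. Its element, 1382 bp upstream of the start site, averaged 1317, 2156 and 2717 normalized counts in p0-1 on days 4, 5 and 6 and 629, 573 and 474 in p3 (adjusted p = 0.00276, 2.86e-10 and 1.13e-07). It was also above pMN at days 5 and 6 (adjusted p = 3.39e-08 and 2.2e-05) and was not called against p2.

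The pattern over the 25 condition means was compared with all elements of other genes by Pearson's r on the VST scale. These values are descriptions, since the conditions share libraries, culture and time. The elements most like Dbx1 +1.5 kb were annotated to Prdm13 (r = 0.912), Prdm12 (r = 0.881), Tmem64 (r = 0.879), Slc45a1 (r = 0.876) and Rpl29 (r = 0.859). Those most like Dbx2 +0.7 kb were annotated to Sp8 (r = 0.936), Hgd (r = 0.918), Olfr1274 (r = 0.910), Gm12866 (r = 0.909) and Gm11681 (r = 0.906). For Dbx2 +14.8 kb they were annotated to Slc4a3 (r = 0.992), Pard3b (r = 0.981), Spata13 (r = 0.981), Itm2a (r = 0.980) and Tas2r119 (r = 0.980). Of the elements compared, 645 had an r above 0.9 with Dbx2 +14.8 kb, so its pattern was not particular to it. Only 1 element had an r above 0.9 with Dbx1 +1.5 kb.

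Among the members, Dbx1 -59.8 kb and Dbx2 +14.8 kb had r = 0.922 over the same 25 means. Both were picked for large differences between the same cell types, which favors a high r. Since 645 elements of other genes had an r above 0.9 with Dbx2 +14.8 kb, the value is not particular to this pair. The 2 start-site elements had r = 0.728. Within Dbx1, -59.8 kb had r = 0.812 with +1.5 kb and 0.547 with -3.3 kb, and -0.604 with +187.4 kb inside Nav2. Within Dbx2, +14.8 kb had r = 0.684 with +0.7 kb and 0.656 with -47.6 kb.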

How the data were processed

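The authors processed CaTS-ATAC reads with the nf-core/atacseq pipeline against mm10, took a consensus of MACS2 peaks over replicates, counted reads in these elements and deposited log2 values from the variance-stabilizing transformation (VST) of DESeq2, with a HOMER annotation. The deposited log2 values were inverted to normalized counts and reads. All recovered values below 1000 reads were within 0.001 of a whole read.

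Differences were tested with limma 3.58.1 in R 4.3.3 (linear model on VST values, variance trend, two-sided), pooled over SAG and over all elements that averaged more than 100 normalized counts across the compared samples. Calls needed more than a 2-fold difference in group means and a Benjamini-Hochberg adjusted p below 0.01. The fold change of the interaction used a pseudocount of 1. SEs are of VST differences. The fits were tested on simulated data. Replicates of a condition came from separate differentiations, but samples of different conditions could share one, and cell types could come from the same dish. The main fits treated all samples as independent. Sequences came from GRCm38.p6, with gene models from GENCODE.

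Samples with the same replicate number in their titles deviated together. On days 5 and 6 all 71 and 59 pairs had r above 0.1 (medians 0.569 and 0.565), and on day 4 69 of 77 did (median 0.618). The lowest r on day 4 was -0.461. The numbers were therefore taken to pair samples on days 5 and 6. On day 4 the check did not hold for every pair. Day 4 results with the replicate block or by replicate number thus assume a pairing that was not established. Pairing across days, which the block assumes in comparisons between days, was not checked. For 15 samples the description gives another number than the title.

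Members, lists and tests were chosen with earlier results of these data known. Named in full are the element nearest each start site and members called in a comparison of cell types or days. For similar patterns, the best element of each of the 5 other genes with the highest r is named. Weak members were named after their values were seen. Some listed genes were not analysed here.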

Additional observations from a re-analysis of the deposited data

Results flagged for a closer look

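Of 144 groups of 4 to 6 samples of 1 cell type and day, over the 12 named elements, 6 held a sample far from the others by Dixon's test, and chance gives about 1 in 20. Dbx2 +14.8 kb was high in p2 at day 5 in replicate 3 at 10 nM, at 1221 normalized counts against 571 to 787 in the other p2 samples. Dbx1 -3.3 kb was high in p2 at day 5 in replicate 2 at 10 nM, at 175 against 75.1 to 105, and low in p3 at day 6 in replicate 3 at 100 nM, at 66.1 against 89.3 to 94.0. Dbx1 -51.6 kb was high in p3 at day 5 in replicate 3 at 500 nM, at 44.9 against 28.1 to 31.8. Dbx1 +113.8 kb was high in p3 at day 4 in replicate 3 at 500 nM, at 171 against 128 to 138. Dbx2 +0.7 kb was low in p2 at day 4 in replicate 1 at 100 nM, at 182 against 228 to 246.

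The change from day 4 to day 6 in p3 minus that in p0-1, tested with an interaction term, was -3.33 in log2 at Dbx1 -59.8 kb, -2.35 at Dbx1 -51.6 kb, -1.75 at Dbx2 -47.6 kb and -1.64 at Dbx2 +0.7 kb.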

How the results depend on the processing

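Leaving out replicate 1, 2 or 3 in turn, the counts of called members ran as follows. For these counts and those at a stricter fold change, the share of all elements called is not given. They are description only. Between p0-1 and p2 they ran from 0 to 0 at day 4 (1 with all samples, Dbx1 -3.3 kb, lost without any of the 3), from 1 to 3 at day 5 (lowest without replicate 1) and from 1 to 3 at day 6 (lowest without replicate 2). Against pMN at day 5 they ran from 3 to 5 and against p3 at day 4 from 2 to 5, both lowest without replicate 1. They ran from 2 to 4 for p0-1 from day 4 to day 5, from 1 to 1 from day 5 to day 6 (2 with all samples, with Dbx1 -51.6 kb lost without any of the 3), and from 1 to 3 for the difference in change between p0-1 and p3, lowest without replicate 2. At an absolute log2 fold change above 2 the counts became 0, 0 and 0 against p2 on days 4, 5 and 6, 0, 2 and 3 against pMN, 2 and 4 against p3 on days 4 and 5, 1 and 0 over the steps to days 5 and 6, and 2 for the difference in change.

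Without the filter they became 8 and 8 against p2 on days 5 and 6, 5, 12 and 13 against pMN, 17 and 18 against p3 on days 5 and 6, 10 and 7 for pMN against p3, 14 from NMPs to p0-1, and 8 for the difference in change. Of all elements, 7.06% and 6.7%, then 6.09%, 18.5% and 13.8%, then 26.5% and 28.3%, then 29.7% and 30.1%, then 47.6%, and 12.9% were called in these comparisons without the filter, so the shares of members for pMN against p3 and from NMPs to p0-1 were near the background or below it. With the replicate block as well, an alternative chosen after seeing the data, they were 2, 8 and 8 against p2, 5, 11 and 13 against pMN, 17 and 17 against p3 on days 5 and 6, 10 and 7 for pMN against p3, 14 from NMPs, 4 from day 5 to day 6, 1 between 0 and 10 nM SAG at day 6, and 9 for the difference in change. The shares of all elements called with the block and without the filter are not given, so these counts are description only. The replicate block alone moved none of the 19 counts by over 1.5 times. It lost none of the 64 calls named and added Dbx2 +14.8 kb to the difference in change (5 members).

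At 10 nM SAG alone the counts against p2 were 0 and 0 on days 4 and 5, and with the replicate block, chosen after seeing the data, 0 at day 4. From day 5 to day 6 the count was 1 with a VST difference above 1, with samples centered on their median and with voom, and voom left 2 for the difference in change. The cause was not tested. None of the 64 calls changed direction where it was tested without a replicate or at 10 nM SAG alone. The direction was read from the group means. The other alternatives kept the same group means, so they could not reverse a call. Of the 32 members, 16 were under the filter in every comparison.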

Other observations

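The strong accessibility upstream of Dbx1 did not end at the outermost member. Within 50 kb beyond Dbx1 -59.8 kb lay 5 elements that the deposited annotation gives to Htatip2, the next gene, and they were chosen after their values were seen. The nearest (chr7:49698941-49700240, intergenic, 62.8 kb upstream of the Dbx1 start site) averaged 1234 ± 297 normalized counts in p0-1 at day 4 (n = 6), 1339 ± 142 at day 5 (n = 6) and 1277 ± 230.0 at day 6 (n = 5), from 15.5 ± 6.84 in NMPs (n = 3). At day 6 it stood at 284 ± 56.9 in p2, 209 ± 50.5 in pMN and 44.1 ± 20.8 in p3, each lower than p0-1 (adjusted p = 1.61e-05, 1.47e-05 and 1.67e-07, limma).

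The next element (chr7:49704521-49705890, 68.4 kb upstream) averaged 808 ± 34.9 in p0-1 at day 6 and 215 ± 24.4 in p2, with pMN at 289 ± 64.2 and p3 at 258 ± 71.7. At day 6 it was thus raised in p0-1 with no difference called between pMN and p3 (adjusted p = 0.561, limma). At day 4 pMN was above p3 (363 against 142, adjusted p = 0.00017). In p0-1 of day 4 this element held 689 at 0 nM SAG and 302 at 10 nM (adjusted p = 0.713, and 1.08e-07 with the replicate block). The element 62.8 kb upstream was not called there by either fit (adjusted p = 0.713 and 0.0521). On day 4 not all pairs of samples with the same replicate number deviated together, so the pairing behind the block was not established there. The element 102.9 kb upstream averaged 289 ± 58.7 in p0-1 and 81.3 ± 23.5 in p2 at day 6 (adjusted p = 0.000446). The element 73.0 kb upstream stood at 472 ± 189 in p2, 245 ± 30.9 in pMN, 195 ± 48.9 in p0-1 and 48.9 ± 5.83 in p3 at day 6. On that day it was called between p0-1 and p3 (adjusted p = 2.4e-05) but not between p0-1 and p2 (adjusted p = 0.0297), whose samples overlapped, or pMN (adjusted p = 0.181). At day 5 it was lower in p0-1 (75.8) than in pMN (211, adjusted p = 0.000188). Against p2 (236) at day 5 it was called only with the replicate block (adjusted p = 0.0229, and 0.00362 with the block). Which gene any of these elements acts on was not measured.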
